A study of Mus musculus with 4 samples.

Results

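The microRNA machinery was followed in C2C12 cells, a mouse myoblast line, after depletion of Fxr1, an RNA-binding protein of the fragile X family. The set holds 10 genes: the Argonautes Eif2c1 to Eif2c4 (now Ago1 to Ago4), the processing and export factors Dgcr8, Xpo5 and Dicer1, and the GW182 scaffolds Tnrc6a, Tnrc6b and Tnrc6c. They were taken by gene symbol, with earlier results of these data known. They carry 13 of the 55681 probes on the array, which covers 36413 gene symbols. Total RNA was measured on 4 arrays of 1 colour (Cy3). In each of 2 independent experiments, 1 array held cells transfected with siFxr1 and 1 held cells transfected with siControl, so each condition has n = 2. The siRNA used against Fxr1 is directed at exon 14, and the methods state 2 biological replicates per condition. Both conditions share the cell line and the transfection, and no untransfected cells were on the arrays. RNA integrity numbers were 9 except in the siFxr1 sample of experiment 1, where it was 8.

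In the canonical pathway, a primary microRNA transcript is trimmed in the nucleus by Drosha and its RNA-binding partner Dgcr8. Exportin 5 (Xpo5) carries the resulting hairpin to the cytoplasm, where Dicer1 cuts it to a short duplex. An Argonaute keeps 1 strand as its guide, pairs with target mRNAs mainly through the seed near the 5′ end of the guide, and recruits a GW182 protein. GW182 proteins in turn bind deadenylases, which shorten the poly(A) tail before decapping and decay. Exogenous siRNAs are also loaded into Argonautes, and Ago2 is the Argonaute best known for cutting a fully paired target. Proteins of the fragile X family have been found in complexes with Argonautes.

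The siRNA directed at Fxr1 is shown first because it enters the same Argonautes that are measured here. The 3 probes under it show what the array reads for an Argonaute, the exporter and a scaffold. They are given in the sense of the mRNA, with positions on mm9. The Eif2c1 probe shown is the dimmer one of that gene, well above background on 1 array only. The brighter Eif2c1 probe, A_52_P76402, is described below.
siFxr1 exon 14: gcaauccauacagcuuacuugaua
Eif2c1, A_55_P2184751, chr4:126117202-126117261, minus strand: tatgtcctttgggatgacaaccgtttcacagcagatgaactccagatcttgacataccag
Xpo5, A_52_P201232, chr17:46378755-46378814, plus strand: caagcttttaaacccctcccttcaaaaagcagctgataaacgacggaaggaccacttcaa
Tnrc6b, A_55_P1987534, chr15:80759793-80759852, plus strand: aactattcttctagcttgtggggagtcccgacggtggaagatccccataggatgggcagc

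The targeted transcript followed the labels. Fxr1 was lower in siFxr1 on both of its probes, at 10.1% and 8.18% of siControl, with log2 differences of -3.31 (SE 0.29, n = 2) and -3.61 (SE 0.28, n = 2). The muscle genes Myod1, Des and Cdh15 were well above background on all 4 arrays, whereas Myf5, another myoblast marker, was well above background on none. Of the 9 markers of other cell types, Ptprc, Epcam and Cdh1 were well above background on none of the arrays, Cd68 on 2, Pecam1 and Krt8 on 3, and Itgam, Kdr and Cdh5 on all 4. Between 45.4% and 52.9% of the probes were well above background on an array, 0 spots were saturated, and the spot SD of probes printed 10 times had a median of 0.054 to 0.067 (log2) on an array. Depth does not apply to arrays, and their number limits the precision. Over 2 arrays against 2, an exact permutation test that ignores the pairing by experiment cannot give a two-sided p below 0.333. With swaps only within an experiment, that limit is higher.

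None of the 10 genes passed the test between siFxr1 and siControl. In limma, 0 of the 13 probes had a B value above 0 or a Benjamini-Hochberg adjusted p under 0.05, and the same held for 0% of all probes on the array, Fxr1 included. At an unadjusted p under 0.05, 0 of the 13 passed against 4.96% of all probes, and with the experiment as a block 0 of the 13 passed against 8.85%. The largest difference between conditions was that of Dicer1, which was lower in siFxr1. Over the 8 genes whose brightest probe was well above background on all 4 arrays, the median log2 difference was -0.18, against 0.02 over all 17819 genes that met the same condition. Including Eif2c3 and Eif2c4, which did not meet it, the median over 10 genes was -0.32, against 0.00 over all genes. The negative sign of this median did not hold without the siFxr1 array of experiment 1 (0.032), and with the mean over the probes of a gene in place of the brightest, the median over the 8 genes was -0.046. All values below are quantile-normalized log2 signals or differences of them, and signals of different probes were not set against each other.

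Of the 13 probes, 4 were higher in siFxr1 in both experiments, against 23.3% of all probes, and 5 were lower in both, against 35.6%. The 2 conditions did not overlap for 2 probes that were higher in siFxr1 (12.7% of all probes) and for 2 that were lower (22.8% of all probes). An Eif2c4 probe that no array placed well above background is among those counted as higher. A difference of at least 2-fold in the same direction in both experiments was seen in 0 of the 13 and in 2.55% of all probes.

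**Figure D1:**
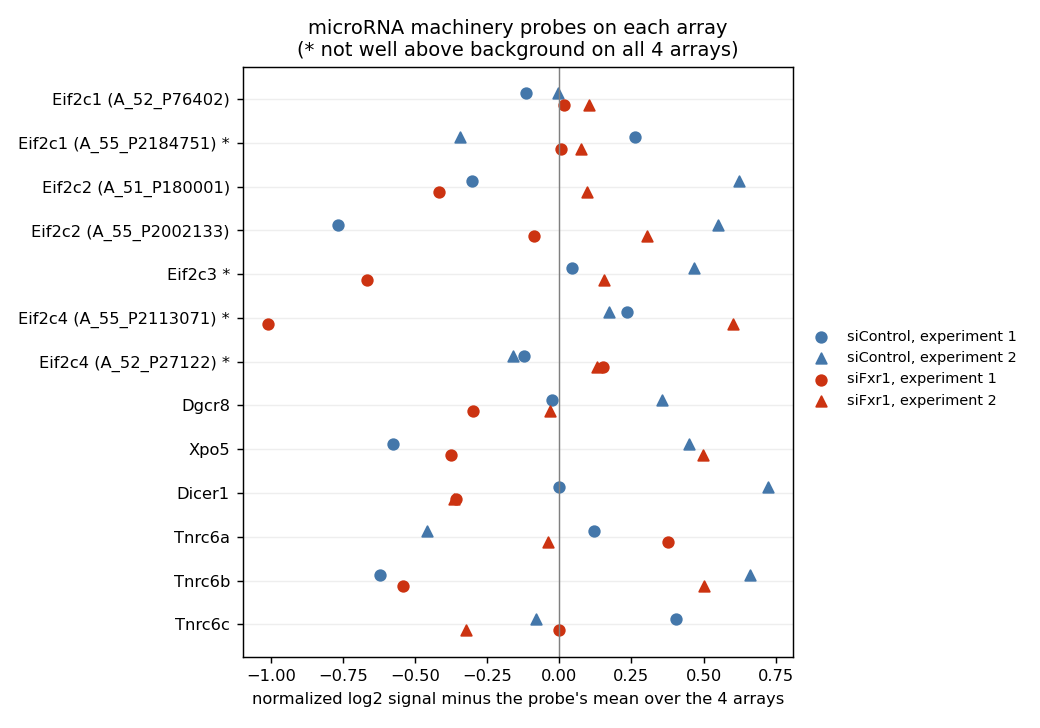
Each row is a probe, and each point is an array, drawn as its normalized log2 signal minus the mean of that probe over the 4 arrays. Blue marks siControl and red siFxr1, circles experiment 1 and triangles experiment 2. For Xpo5 and Tnrc6b the circles lie left of the triangles in both colours, and for Dicer1 and Dgcr8 the red points lie left of the blue ones.

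Of the Argonautes that were detected, Eif2c1 (Ago1), which binds a small RNA guide, had the smallest error. Its brighter probe, A_52_P76402 (chr4:126112644-126112703, mm9), read 9.64 and 9.72 in siFxr1 and 9.51 and 9.61 in siControl, in experiments 1 and 2. Both siFxr1 arrays lay just above both siControl arrays. The log2 difference was 0.12 (SE 0.16, n = 2, 95% interval -0.36 to 0.59), so the interval ran from 0.782-fold to 1.51-fold. The second probe of Eif2c1, whose sequence is printed above, lies upstream in the transcript and was dim. It read 5.08 and 5.15 in siFxr1 and 5.34 and 4.73 in siControl, and was well above background on 1 siFxr1 array and on no siControl array. Its difference was -0.26 in experiment 1 and 0.42 in experiment 2, so no direction can be given for this probe.

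Eif2c2 (Ago2), the slicing Argonaute, was measured by a pair of bright probes that did not give the same direction. A_51_P180001 (chr15:72936863-72936922, mm9) read 11.98 and 12.50 in siFxr1 and 12.10 and 13.03 in siControl, with overlapping conditions. It was lower in siFxr1 by -0.11 in experiment 1 and by -0.53 in experiment 2, for a fitted difference of -0.32 (SE 0.44, n = 2, 95% interval -1.66 to 1.02). A_55_P2002133 (chr15:72935705-72935764, mm9), further 3′ in the transcript, read 8.70 and 9.09 in siFxr1 and 8.02 and 9.34 in siControl. Its differences were 0.68 in experiment 1 and -0.25 in experiment 2, for a fitted difference of 0.22 (SE 0.56, n = 2, 95% interval -1.48 to 1.91). No direction can therefore be given for Ago2.

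Eif2c3 (Ago3), another guide-binding Argonaute, was dim. A_55_P2068922 (chr4:126032332-126032391, mm9) read 5.27 and 6.09 in siFxr1 and 5.98 and 6.40 in siControl. The siFxr1 array of experiment 1 was not well above background, and it was the lowest of the 4. The difference was negative in both experiments, at -0.71 and -0.31, with a fitted value of -0.51 (SE 0.39, n = 2, 95% interval -1.70 to 0.68). Eif2c4 (Ago4) was not measured: its probes A_55_P2113071 (chr4:126169537-126169596, mm9) and A_52_P27122 (chr4:126167162-126167221, mm9) were not well above background on any array. They read between 2.67 and 4.44, the scanner software put the error of a spot at up to 101% of its signal, and no fold is given. The germline Argonautes of the Piwi family (Piwil1, Piwil2 and Piwil4), which bind piRNAs, were no better measured. Piwil1 was well above background on no array, and Piwil2 and Piwil4 on 1 array each, so that 0 of the 3 reached it on all 4.

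Among the processing and export factors, Dicer1, the enzyme that cuts precursor hairpins, had the largest difference of the set. A_66_P103301 (chr12:105926064-105926123, mm9) read 9.36 and 9.35 in siFxr1 and 9.71 and 10.44 in siControl. The siFxr1 arrays were nearly equal and both lay below both siControl arrays, which stood 0.72 apart from each other on the log2 scale. In siFxr1 the mean was 9.35 ± 0.0045 (SD, n = 2), and the siControl mean was 10.08 ± 0.51 (SD, n = 2). The difference was -0.36 in experiment 1 and -1.09 in experiment 2. The fitted log2 difference of -0.72 had an SE of 0.32 and a 95% interval of -1.70 to 0.25, with a limma adjusted p of 0.975. With the experiment as a block the interval was -1.60 to 0.15 and the adjusted p 0.600. The Dicer1 measurement rests on 1 probe, printed as 1 spot, near base 9679 of the transcript.

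Dgcr8, the partner of Drosha, was lower in siFxr1 by a similar amount in both experiments. A_55_P2108067 (chr16:18254226-18254285, mm9) read 10.47 and 10.74 in siFxr1 and 10.75 and 11.13 in siControl, without overlap but with only 0.01 between the nearest arrays of the conditions. The differences were -0.28 and -0.39, with a fitted value of -0.33 (SE 0.23, n = 2, 95% interval -1.04 to 0.38). With the block, the interval ran from 0.521-fold to 1.21-fold. Drosha itself, listed on the array as Rnasen, differed by -0.16 in experiment 1 and by 0.11 in experiment 2.

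Xpo5, the exporter of precursor hairpins, differed little between the conditions and much between the experiments. A_52_P201232, printed above, read 11.20 and 12.07 in siFxr1 and 11.00 and 12.02 in siControl. Within each experiment the siFxr1 array was higher, by 0.20 and 0.05, and the conditions overlapped. The fitted difference was 0.12 (SE 0.55, n = 2, 95% interval -1.55 to 1.79). With the experiment as a block the interval narrowed to -0.49 to 0.74.

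The 3 GW182 genes, whose proteins bind Argonautes and recruit the deadenylases, had differences of different sign. Tnrc6a (A_51_P509229, chr7:130338627-130338686, mm9) read 11.39 and 10.97 in siFxr1 and 11.13 and 10.55 in siControl. It was higher in siFxr1 by 0.26 and 0.42 within the experiments, for a fitted difference of 0.34 (SE 0.32, n = 2, 95% interval -0.62 to 1.30). Tnrc6b, whose probe is printed above, read 10.65 and 11.69 in siFxr1 and 10.57 and 11.85 in siControl. Its differences were 0.08 and -0.16, for a fitted value of -0.04 (SE 0.66, n = 2, 95% interval -2.06 to 1.98). Tnrc6c (A_55_P2133806, chr11:117624691-117624750, mm9) read 9.67 and 9.35 in siFxr1 and 10.08 and 9.59 in siControl. It was lower in siFxr1 by -0.41 and -0.24, for a fitted difference of -0.33 (SE 0.27, n = 2, 95% interval -1.15 to 0.50). The conditions overlapped for all 3 genes.

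Intervals show how far these arrays limit a change. Of the 9 probes that all 4 arrays placed well above background, 1 (Eif2c1, A_52_P76402) had a 95% interval that lay between 0.5-fold and 2-fold in the fit without a block, against 28.5% of the 23500 probes measured as well. With the block, 6 of the 9 did (Eif2c1, Dgcr8, Xpo5 and the 3 GW182 genes), against 49.7%. For both Eif2c2 probes and for Dicer1, a difference of 2-fold lay inside the interval of either fit.

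**Figure D2:**
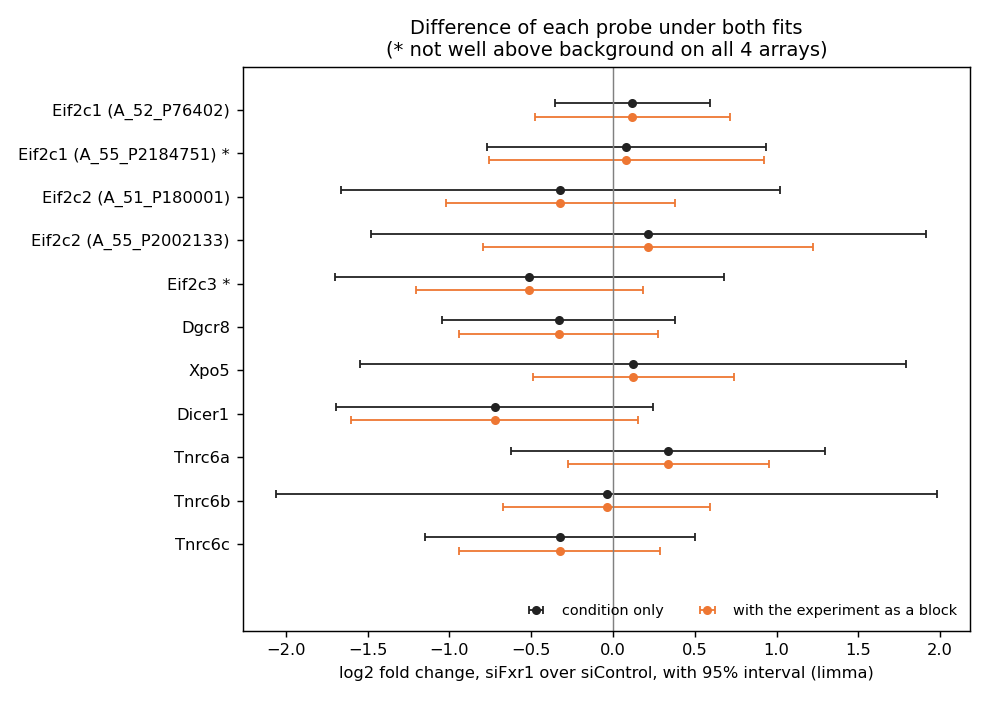
Each row is 1 of the 11 probes that were well above background on at least 1 array, with its log2 fold change of siFxr1 over siControl and the 95% interval from limma, in black for the fit with the condition alone and in orange with the experiment as a block. Every interval includes 0, and those of Xpo5 and Tnrc6b are the ones that narrow most with the block.

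For part of the set, the larger difference was that between the experiments. In the fit with both terms, 0 of the 13 probes had an adjusted p under 0.05 or a B value above 0 between experiments 1 and 2, against 0% and 1.19% of all probes. These calls depended on the processing: Tnrc6b was called in 4 alternative settings, Xpo5 in 3 of these and Eif2c2 (A_55_P2002133) in 1, all lower in experiment 1. At an unadjusted p under 0.05, 3 of the 13 passed (Tnrc6b, Xpo5 and Eif2c2 on A_51_P180001), against 20.1% of all probes. The arrays of experiment 1 lay wholly above those of experiment 2 for 2 probes, Tnrc6a and Tnrc6c, against 26.5% of all probes. They lay wholly below them for 5 probes, those of Eif2c2, Eif2c3, Xpo5 and Tnrc6b, against 19.4% of all probes.

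Tnrc6b had the largest such difference, at -1.16 for experiment 1 minus experiment 2 (SE 0.20, n = 2, 95% interval -1.80 to -0.53, limma adjusted p = 0.137). It was present in both conditions, at -1.04 in siFxr1 and -1.28 in siControl. Xpo5 differed by -0.95 (SE 0.20, n = 2, 95% interval -1.56 to -0.34, limma adjusted p = 0.156), with -0.87 in siFxr1 and -1.03 in siControl. Both genes were thus lower in experiment 1 whatever the siRNA. Eif2c2 was also lower in experiment 1, by -0.72 (SE 0.23) on A_51_P180001 and by -0.85 (SE 0.32) on A_55_P2002133, and here the probes gave the same direction. Among the GW182 genes, Tnrc6a and Tnrc6c lay on the other side, at 0.50 (SE 0.20) and 0.40 (SE 0.20). Eif2c1 (A_52_P76402) differed by -0.10 (SE 0.19).

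**Figure D3:**
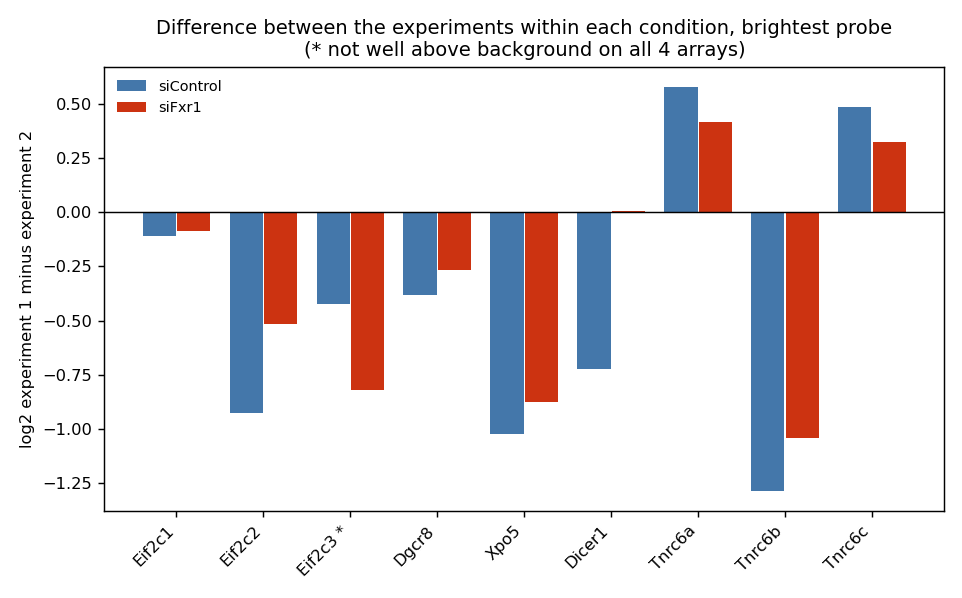
Bars give the log2 signal of experiment 1 minus that of experiment 2, for the brightest probe of each gene except Eif2c4, in siControl (blue) and siFxr1 (red). There are no error bars because each bar is 1 array minus 1 array. The bars of Xpo5 and Tnrc6b point down in both conditions, and those of Tnrc6a and Tnrc6c point up in both.

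A further difference between the experiments was seen in muscle genes. The muscle differentiation list holds Myog, Myh3, Ckm, Acta1, Tnnt3 and Mybph. All 6 had higher signals in experiment 1 under either siRNA, as had 12645 of all 36413 genes. Their median log2 difference was 1.99, against 0.03 over all genes. Myog, a transcription factor of terminal muscle differentiation, was higher by 2.12, and Ckm, the muscle creatine kinase, by 2.82. The part of this in the values of Tnrc6b, Xpo5 and Eif2c2 was not tested. Between the conditions, the same 6 genes had a median difference of -0.17. In RNA of whole cultures, fewer cells of a kind and less RNA per cell cannot be told apart.

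Across the 4 arrays, the most alike profiles in the set were those of Xpo5 and Tnrc6b. Likeness was taken as the root mean square difference of the log2 signals after each gene's mean was subtracted, over 4 arrays and brightest probes. It was 0.14 for Xpo5 and Tnrc6b, 0.21 for Eif2c2 and Dgcr8 and 0.22 for Eif2c3 and Dgcr8. These 4 values per gene share the arrays and the difference between the experiments, so the likeness is a description only.

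The genes that work beside the set were read from a list of 70 genes of the pathway, of which 69 were on the array and 63 well above background on all 4 arrays. In limma, 0 of the 69 were called between siFxr1 and siControl, without the experiment as a block or with it. Joined with a filter on dim probes, the block called Rqcd1, and on the authors' normalized values it called Rqcd1, Mov10 and Dcp2. At an unadjusted p under 0.05 without the block, 2 were higher (Dcp2 and Cnot7, against 2.86% of all genes) and 2 lower (Rqcd1 and Mov10, against 2.39%). In both experiments, 24 were higher in siFxr1 (25.5% of all genes), 19 were lower (34.2% of all genes) and 26 were mixed. Among the 63 well above background on all 4 arrays, 22 were higher, 18 lower and 23 mixed. Of the 17819 genes that met the same condition, 5938 were higher, 5366 lower and 6507 mixed. The median log2 difference was 0.01 over the 69 and 0.00 over all genes.

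The deadenylation genes, which act downstream of GW182 proteins, numbered 14. In both experiments, 4 were higher (25.5% of all genes) and 5 lower (34.2% of all genes). Rqcd1 (now Cnot9), the subunit of the CCR4-NOT deadenylase through which it binds GW182 proteins, read 7.85 and 7.80 in siFxr1 and 9.30 and 9.33 in siControl. The conditions were clearly apart and the experiments were not: the difference was -1.45 in experiment 1 and -1.52 in experiment 2, with a fitted value of -1.49 (SE 0.15, n = 2, 95% interval -1.93 to -1.04). Its limma adjusted p was 0.950, as it was for the lowest of all probes. Cnot7, a catalytic deadenylase of the same complex, was measured at 9.04 and 9.10 in siFxr1 and 8.62 and 8.51 in siControl, a difference of 0.51 (SE 0.15, n = 2). Rqcd1 and Cnot7 rest on 1 probe each, printed as 1 spot, and were named for the size of their differences.

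Among the 8 genes of decapping and decay, 3 were higher in siFxr1 in both experiments (25.5% of all genes) and 2 lower (34.2% of all genes). Dcp2, the enzyme that removes the cap, read 9.42 and 9.18 in siFxr1 and 8.29 and 7.98 in siControl. Its differences were 1.13 and 1.20, with a fitted value of 1.16 (SE 0.21, n = 2, 95% interval 0.51 to 1.82). The Dcp2 values rest on 1 probe, printed as 1 spot. Dcp1b, a cofactor of decapping, had negative differences on both of its probes, at -0.82 (SE 0.31, n = 2) and -0.77 (SE 0.30, n = 2). These probes start near bases 1822 and 1831 of the transcript, so they read nearly the same stretch and are not separate measurements. Dcp2 and Rqcd1 were the 2 genes of the 69 with differences of at least 2-fold the same way in both experiments, as were 2.76% of all genes.

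Of the 13 helicases and partners of the Argonaute complex, 6 were higher in siFxr1 in both experiments and 6 lower. The shares over all genes were 25.5% and 34.2%. Mov10, an RNA helicase found with Argonautes, read 10.46 and 11.02 in siFxr1 and 11.52 and 11.93 in siControl, a difference of -0.98 (SE 0.31, n = 2, 95% interval -1.93 to -0.03). It too rests on 1 probe, printed as 1 spot. Fmr1, the fragile X gene and a relative of Fxr1, had positive differences on its 3 probes, at 0.51 (SE 0.17), 0.40 (SE 0.35) and 0.38 (SE 0.37), and the conditions did not overlap on the brightest. Fxr2, the other relative, differed by -0.11. The groups for the microprocessor (6 genes), for dicing and loading (7 genes) and for uridylation and decay of precursors (9 genes) had medians between -0.02 and 0.03.

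**Figure D4:**
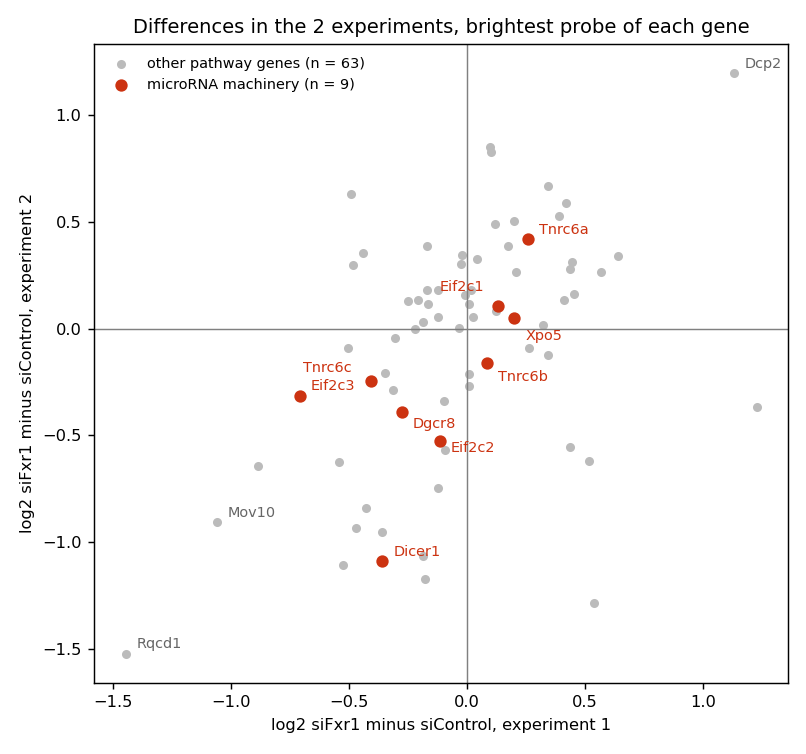
The log2 difference of siFxr1 over siControl in experiment 1 (horizontal axis) is set against that in experiment 2 (vertical axis) for the brightest probe of each gene, with the microRNA machinery except Eif2c4 in red and the 63 pathway genes well above background on all 4 arrays in grey. Rqcd1 and Dcp2 lie at opposite corners, at -1.45 and -1.52 and at 1.13 and 1.20, and Dicer1 lies at -0.36 and -1.09.

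MicroRNAs themselves were not measured, but the array held 9 transcripts that host them, 7 of them detected well above background by all 4 arrays. Of the 9, 4 were higher in siFxr1 in both experiments (25.5% of all genes), 2 lower (34.2% of all genes) and 3 mixed. Their median log2 difference was 0.07. Meg3, which no array placed well above background, is among those counted as higher. The 4 hosts described below were chosen after their values were seen. Of the other detected hosts, Mest was higher in both experiments, and Dnm3os and Myh7b were mixed. The sequences below are mature microRNAs from 4 of these hosts, from RefSeq (GRCm38.p6), with the seed (bases 2 to 8) in capitals. They show a seed, AUUGCAC, that is carried by hosts that differed in opposite directions. The span searched for Mir17hg held 2 mature microRNAs, both of miR-92a. Seeds of other microRNAs of its cluster were therefore not compared.
mmu-miR-92a-3p (Mir17hg): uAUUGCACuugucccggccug
mmu-miR-25-3p (Mcm7): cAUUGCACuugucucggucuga
mmu-miR-93-5p (Mcm7): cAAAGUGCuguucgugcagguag
mmu-miR-106b-5p (Mcm7): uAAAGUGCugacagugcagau
mmu-let-7g-5p (Wdr82): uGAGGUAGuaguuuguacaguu
mmu-miR-675-5p (H19): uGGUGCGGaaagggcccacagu

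Mir17hg, the host transcript of the miR-17 cluster, read 9.25 and 9.22 in siFxr1 and 8.68 and 8.95 in siControl, and was higher by 0.56 and 0.26. Mcm7, a helicase subunit of DNA replication whose intron holds the miR-106b-25 cluster, read 14.13 and 14.39 in siFxr1 and 14.60 and 15.32 in siControl, lower by -0.47 and -0.93. The hosts of miR-92a-3p and miR-25-3p, which share the seed AUUGCAC, thus had differences of opposite sign. Neither passed the test: the fitted differences were 0.41 (SE 0.18, n = 2) and -0.70 (SE 0.33, n = 2), and both had a limma adjusted p of 0.975.

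Wdr82, whose span holds let-7g, differed by 0.45 and 0.31 in the experiments, with both siFxr1 arrays (12.53 and 12.47) above both siControl arrays (12.09 and 12.16). H19, the imprinted non-coding RNA that is the precursor of miR-675, had 7 probes well above background on all 4 arrays. All 7 had negative fitted differences, from -0.95 to -0.63, and 6 of them were lower in both experiments. The differences were larger in experiment 2, at -1.69 to -0.84, than in experiment 1, at -0.43 to 0.15. These probes read the same RNA on the same arrays, so they are not separate measurements. The brightest H19 probe had a 95% interval of -2.11 to 0.84. A host mRNA does not give the level of its mature microRNA.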

How the data were processed

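RNA of C2C12 myoblasts was hybridised to 4 Agilent mouse arrays of 1 colour, 48 h after transfection, and samples were grouped by their labels. The authors deposited the spot intensity of each array, from Agilent Feature Extraction 10.7.3.1, detrended and background-corrected within the array and not normalized between arrays. A table of intensities normalized by the authors was deposited as well (limma and the quantile method per the methods, background correction not given in the sources used here) and served as an alternative.

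In R 4.3.3 with limma 3.58.1, log2 values of the background-corrected intensity of the 59305 non-control spots were quantile-normalized. Outlier spots (145 to 177 per array) were set to missing, and spots of a probe were averaged. lmFit and eBayes were run over all 55681 probes with the condition as the only term, and p-values were adjusted by Benjamini-Hochberg over all of them. A probe was called at B above 0, the threshold of the methods, or at an adjusted p under 0.05. The methods also name means of ratios over all comparisons, which this fit did not use. The study reported transcripts that passed its threshold, Fxr1 among them, so the calls here are not those of the study. No filter on low signal was applied. The software marks spots that are well above background, and a share of 0.5 of such spots was required of a probe. Where several probes measure a gene, the brightest stands for it in counts and medians, and the others are given in the text. Intervals are 95% intervals of limma.

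Samples with the same number come from 1 experiment and shared a slide, so the numbers pair the samples. Their deviations from the condition means correlated at 0.714 over 25540 probes. The fit with the experiment as a block gave 0 calls, as did the fit without it. Named are all 10 genes and, of the pathway list, the 3 genes with the largest differences in each direction among those well above background, beside genes singled out after their values were seen (the hosts of microRNAs, Drosha, Fxr2). Members and lists were chosen with earlier results of these data known, so their counts and medians are descriptions. The array's symbols were matched to RefSeq symbols by accession for all 13 probes. Probe positions come from the array annotation (mm9), which states neither exon nor UTR. The siRNA sequence is from the study's list of oligonucleotides. Alternatives were other scalings and background corrections, the authors' table, a filter on dim probes, the block, the 4 possible ratios of a siFxr1 to a siControl array, a variance prior with a trend and each array left out.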

Additional observations from a re-analysis of the deposited data

How the results depend on the processing

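No probe of the 10 genes was called between siFxr1 and siControl under any setting tried. Over all probes, 0 were called as reported and with the replicate block alone, 354 with the replicate block and a filter on dim probes (211 higher, 143 lower), 590 with the block on the authors' normalized table (285 higher, 305 lower) and 1107 (572 higher, 535 lower) where the 4 possible ratios of a siFxr1 to a siControl array were the observations. Each array enters 2 of these ratios, so they are not independent. Of the pathway list, the block with the filter called 1 gene (Rqcd1), the block with the authors' values 3 (Mov10, Rqcd1 and Dcp2) and the 4 ratios 2 (Rqcd1 and Dcp2), and all other settings 0.

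The median over the 10 genes was -0.32 as reported, -0.19 with scaling to the 75th percentile, -0.24 with normexp, -0.30 with the median signal minus local background, -0.21 on the authors' table with and without the block, and between -0.51 and 0.032 when an array was left out. The sign was lost without siFxr1 replicate 1. Over the 8 genes well above background, the median was -0.18 with the brightest probe and -0.046 with the mean over the probes of a gene. The median of the pathway list was 0.066 with scaling to the 75th percentile and between -0.017 and 0.089 when an array was left out.

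Leaving out an array turned the sign of 5 probes, with ranges of -0.79 to 0.14 for Eif2c2 (A_51_P180001), -0.44 to 0.87 for Eif2c2 (A_55_P2002133), -0.22 to 0.38 for the dim Eif2c1 probe, -0.39 to 0.64 for Xpo5 and -0.68 to 0.60 for Tnrc6b. Dicer1 (-1.09 to -0.36), Dgcr8, Eif2c3 and Tnrc6c stayed below 0, and Tnrc6a and the brighter Eif2c1 probe above 0. The dim Eif2c1 probe was at -0.079 with the median signal minus background.

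Between the experiments, 664 probes had a B value above 0 or an adjusted p under 0.05 as reported, 5846 with scaling to the 75th percentile, 4471 with normexp, 3686 with the median signal minus background, 5450 on the authors' table and 4342 with the filter. Tnrc6b was then called with normexp (-1.29), median minus background (-1.30), the authors' table (-1.26) and the filter (-1.16), Xpo5 with normexp (-0.86), the authors' table (-0.85) and the filter (-0.95), and Eif2c2 (A_55_P2002133) on the authors' table (-0.80). The dim Eif2c1 probe turned to -0.23 at the 75th percentile, -0.0079 with normexp and -0.15 with median minus background. The causes were not tested. Signal over background limits Eif2c3, Eif2c4 and the dim Eif2c1 probe.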
